A study of Homo sapiens with 24 samples.

Results

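MYC, its family member MYCN, their partner MAX and 37 genes of nucleolar ribosome biogenesis were followed by RNA-seq in 3 human T-cell lines exposed to AZA or decitabine. These 40 genes were listed by symbol, with earlier results of these data known though no measured value enters the rule, and all 40 were among the 25559 genes counted. MYC is a transcription factor that binds DNA as a dimer with MAX, and genes for ribosome assembly are among its best known targets. Ribosomes are built in the nucleolus, where RNA polymerase I (Pol I) transcribes ribosomal RNA, small nucleolar RNA-protein particles (snoRNPs) guide its modification, and assembly factors fold and cut it into the small and the large subunit. Rapidly dividing T-cell leukemia and lymphoma cells depend on a high output of this pathway.

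The lines differ in origin: HH comes from a cutaneous T-cell lymphoma, PF382 from a T-cell acute lymphoblastic leukemia, and TLOm1 from an adult T-cell leukemia. AZA and decitabine are cytidine analogs that are built into nucleic acid and trap DNA methyltransferases. HH cells received AZA at 50, 125 or 250 nM, PF382 and TLOm1 cells received AZA at 125, 250 or 500 nM, and all 3 lines received decitabine at 5, 12.5 or 25 nM, for 96 h with drug added every 24 h. Each condition has 1 library, and each line has 1 untreated library of its own in either drug's set, so that the 24 libraries fall into 6 untreated, 9 AZA and 9 decitabine libraries. Total counts ranged from 13892514 to 32496676, and 3 counts, the upper limit that a count of 0 allows from counting error alone, corresponded to 0.0923 to 0.216 CPM (counts scaled to the library total). The 40 genes took 0.666% to 0.982% of all counts of a library. Of the T-cell markers, CD3E (33.5 to 663 CPM), CD247 (50.6 to 141 CPM) and ZAP70 (55.9 to 390 CPM) were read in all lines. So were LAT (20.7 to 443 CPM), CD2 (4.15 to 285 CPM) and CD4. The lowest level of CD3D, CD3G, CD5, CD7, CD28, CD8A, LCK and IL2RA was 0.249 CPM or less in at least 1 line. CD3D reached 318 to 447 CPM in PF382 and at most 0.731 CPM in TLOm1, LCK was at most 0.646 CPM in HH and 1.34 CPM in TLOm1, and CD4 was 518 to 627 CPM in HH and 761 to 1020 CPM in TLOm1 against 8.89 to 31.7 CPM in PF382. Of 17 markers of other cell types, HBA1 and EPCAM were at 0 in the untreated libraries of the AZA set and HBA1 in those of the decitabine set. VIM, which T-cell lines also express, carried most of their sum. Without VIM they summed to 3.41 to 78.7 CPM in untreated and 3.69 to 195 CPM in AZA libraries, and to 4.32 to 128 CPM in untreated and 3.6 to 219 CPM in decitabine libraries, and the part of this in the results was not tested.

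The dimer of MYC and MAX recognises the motif CACGTG, the E-box, which reads the same on both strands. Of the 40 genes, 34 had a promoter window in the RefSeq table for GRCh38.p14, which runs from 250 bases before to 50 bases after a gene's start. MYC, NOLC1, NOP58, RRP12, BOP1 and RRS1 had none. The motif was found in the windows of 15 of the 34 (44.1%), against 2396 of 27305 genes (8.77%) in the whole table. It was present in 4 of 13 genes with a window whose level fell with AZA dose (30.8%) and in 11 of the other 21 (52.4%). The 4 genes that hold the motif and had the smallest adjusted p in the AZA dose slope below were FBL, WDR43, DDX21 and GNL3. Their stretches are shown with the motif in capitals, 5′ to 3′ along the gene, since its place relative to the start differed between them. FBL lies at chr19:39846368-39846433 on the minus strand, WDR43 at chr2:28894610-28894675 on the plus strand, DDX21 at chr10:68956556-68956646 on the plus strand and GNL3 at chr3:52685978-52686043 on the plus strand. The first base of the motif lay 31 bases before the start in DDX21, and 3 bases after it in WDR43 and 6 bases after it in FBL and GNL3. A match is a description of the letters and not a measured binding site.
FBL: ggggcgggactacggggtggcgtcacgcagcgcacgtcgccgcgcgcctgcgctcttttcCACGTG
WDR43: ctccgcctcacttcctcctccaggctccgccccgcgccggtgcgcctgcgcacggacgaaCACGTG
DDX21: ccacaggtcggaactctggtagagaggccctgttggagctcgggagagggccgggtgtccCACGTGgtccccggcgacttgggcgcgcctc
GNL3: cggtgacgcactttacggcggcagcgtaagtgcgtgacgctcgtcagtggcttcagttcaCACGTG

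MYC was lower in 17 of the 18 treated libraries than in the untreated library of its own line and set, and in HH and PF382 each higher dose gave a lower level. In the AZA set, MYC was at 441 CPM in untreated HH cells and at 468, 365 and 311 CPM at 50, 125 and 250 nM. In PF382 it was at 380 CPM untreated and at 270, 250 and 212 CPM at 125, 250 and 500 nM. In TLOm1 it was at 173 CPM untreated and at 140, 144 and 134 CPM at the same doses. Only HH at 50 nM lay above its untreated library in this set, and the order of doses was kept in HH and PF382 and not in TLOm1. In the decitabine set, MYC was at 448 CPM in untreated HH cells and at 447, 362 and 296 CPM at 5, 12.5 and 25 nM. In PF382 it was at 407 CPM untreated and at 276, 201 and 144 CPM, the steepest series of the 6. In TLOm1 it was at 155 CPM untreated and at 145, 110 and 115 CPM. In HH at 5 nM MYC differed from its untreated library by 0.0025 on the log2 scale, and all other decitabine libraries lay below theirs. Each of these levels is a share of the library's RNA, so that fewer cells with a high level and less MYC RNA per cell cannot be told apart.

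**Figure D1:**
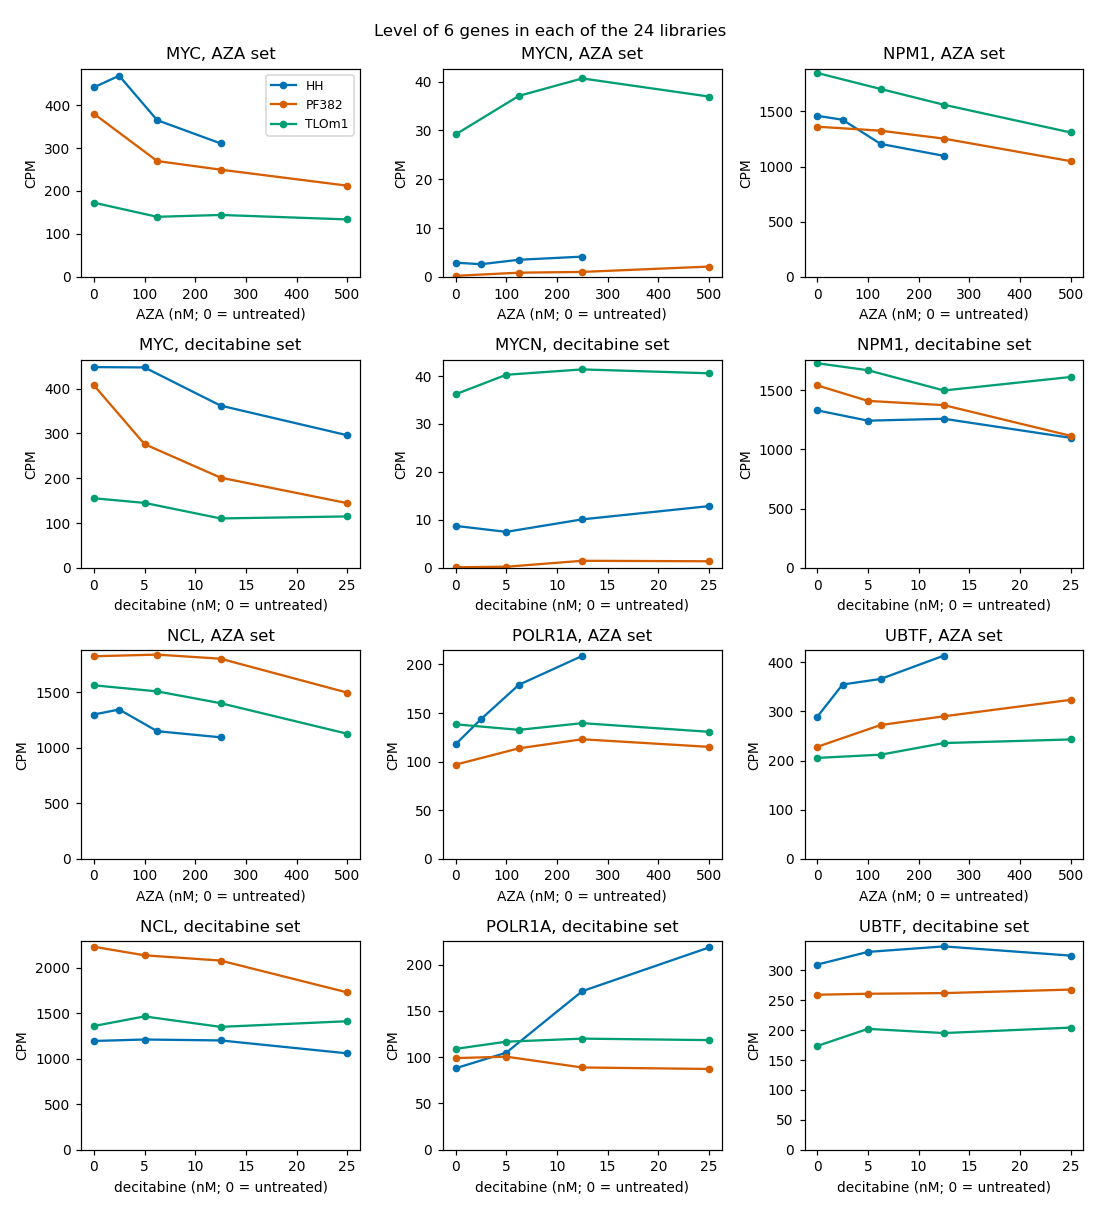
CPM (vertical axis, from 0) of MYC, MYCN, NPM1, NCL, POLR1A and UBTF against dose in nM (horizontal axis, 0 for untreated), for the AZA set and the decitabine set, with 1 point per library and 1 line per cell line. MYC falls from 407 to 144 CPM in PF382 with decitabine, POLR1A rises from 88.0 to 219 CPM in HH with decitabine and lies between 87.3 and 101 CPM in PF382 with decitabine.

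The change of MYC with dose passed the test for both drugs. The dose slope, the log2 change of the level per doubling of the dose over the 9 treated libraries of a drug with cell line as a block, was -0.18 ± 0.037 (SE) for AZA (adjusted p = 0.0141) and -0.28 ± 0.043 for decitabine (adjusted p = 0.0055), both by edgeR's quasi-likelihood test with Benjamini-Hochberg adjustment over all genes. The untreated libraries do not enter this slope. All treated libraries against the untreated ones gave a log2 fold change of -0.40 ± 0.12 for AZA (adjusted p = 0.113) and -0.57 ± 0.20 for decitabine (adjusted p = 0.235) in the same test, so that neither passed. An exact two-sided permutation test that moved the untreated label within each line gave p = 0.0312 for AZA and p = 0.0469 for decitabine (adjusted p = 0.0704 for both over 6 values), where the smallest possible p was 0.0156. The AZA slope of MYC had an adjusted p of 0.0518 without the HH library at 50 nM, 0.055 without HH at 250 nM, 0.128 without the HH line and 0.0666 without the PF382 line. The decitabine slope of MYC passed in all 9 fits that left out 1 library and had an adjusted p of 0.076 without the HH line. The labels do not tie doses to separate cultures, so these p-values measure only the spread between libraries, which may be technical.

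Neither MYCN nor MAX passed over the lines, in the effect or in the slope of either drug. MYCN, a MYC relative best known from neural tissue, was at 29.2 CPM in untreated TLOm1 cells of the AZA set and at 37.1, 40.7 and 36.95 CPM at 125, 250 and 500 nM. In HH of that set it was at 2.92 CPM untreated and at 2.60, 3.51 and 4.15 CPM at 50, 125 and 250 nM. In PF382 it rested on 5 counts untreated and on 22, 24 and 53 counts, or 0.218 CPM and 0.862, 1.02 and 2.11 CPM. Treated libraries thus lay above the untreated one in all lines except HH at 50 nM. In the decitabine set, MYCN was at 36.2 CPM in untreated TLOm1 cells and at 40.3, 41.4 and 40.6 CPM at 5, 12.5 and 25 nM. In HH it was at 8.75 CPM untreated and at 7.50, 10.1 and 12.9 CPM, and in PF382 it rested on 2, 4, 22 and 19 counts. The untreated HH libraries of the 2 sets thus stood apart in MYCN, at 2.92 and 8.75 CPM. The MYCN effect was 0.61 ± 0.30 for AZA (adjusted p = 0.264) and 0.31 ± 0.28 for decitabine (adjusted p = 0.607), and the slopes were 0.20 ± 0.098 (adjusted p = 0.202) and 0.18 ± 0.099 (adjusted p = 0.364), by the same edgeR test. With the untreated libraries of the other set in place of its own, the AZA effect on MYCN changed sign to -0.24.

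MAX, the partner that MYC and MYCN need to bind DNA, was between 51.9 and 62.1 CPM in the 8 HH libraries and between 30.6 and 39.4 CPM in the 8 TLOm1 libraries. In PF382 it was at 97.0 CPM untreated and at 79.8, 81.5 and 92.3 CPM with AZA, and at 90.7 CPM untreated and at 81.3, 77.6 and 76.7 CPM with decitabine. The log2 fold change of MAX was -0.18 ± 0.073 for AZA (adjusted p = 0.192) and -0.08 ± 0.070 for decitabine (adjusted p = 0.589), and neither slope passed (-0.03 ± 0.038, adjusted p = 0.679, and -0.05 ± 0.032, adjusted p = 0.47). The exact permutation test gave p = 0.0469 for MAX with AZA and p = 0.391 with decitabine, and p = 0.0469 and p = 0.188 for MYCN.

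With rising AZA dose, 16 of the 40 genes fell and UBTF rose, while the other 23 did not pass the test. The 16 were MYC, NCL, NPM1, FBL, NOP56, NOP58, NHP2, NOLC1, WDR12, POLR1B, WDR43, WDR75, HEATR1, GNL3, DDX21 and TSR1. Of all 16450 genes tested, 6.19% fell and 8.04% rose, so that the share of the 40 that fell was above that of all genes. The slope was below 0 in 36 of the 40, with a median of -0.11 against 0.01 over all genes. The count of 16 moved with single libraries, as did the count over all genes (1019 as reported, 369 to 1016 without 1 library or line). It was 5 without TLOm1 at 125 nM, 7 when the 500 nM and 10 when the 125 nM library of PF382 was left out, 6 without the PF382 line and 3 without the TLOm1 line. NCL, NPM1 and TSR1 were called in all 9 fits that left out 1 library. The slope was below 0 in 34 to 36 of the 40 under the alternatives on the scale of a doubling, with medians between -0.12 and -0.08.

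**Figure D2:**
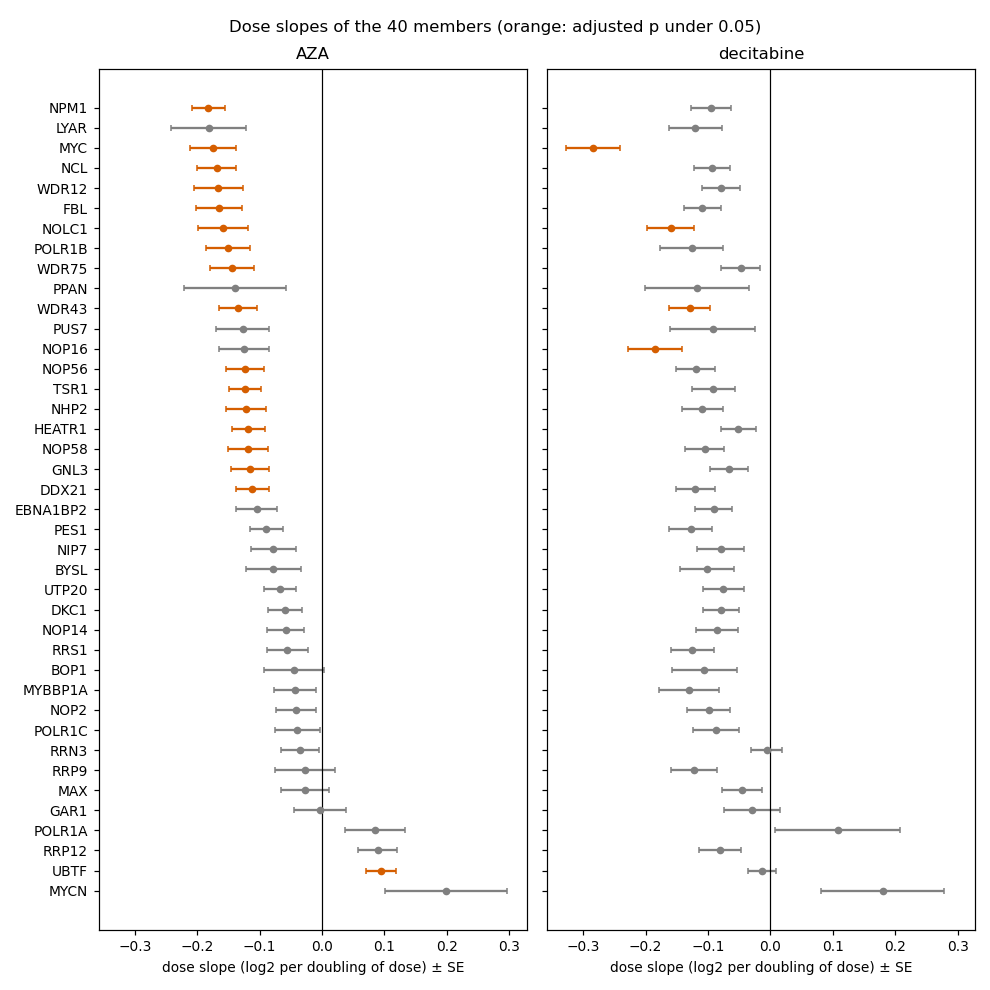
Dose slope in log2 per doubling of dose (horizontal axis) of each of the 40 genes (rows) for AZA on the left and decitabine on the right, as point and SE bar from the fit across all genes, with orange for an adjusted p under 0.05. For AZA 36 points and for decitabine 38 points lie left of 0, and MYCN has the highest point in both.

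RNA of the nucleolar protein genes NPM1 and NCL showed the fall with AZA dose in every line. NPM1, a nucleolar chaperone of ribosome export, was at 1460, 1424, 1205 and 1097 CPM in HH from untreated to 250 nM AZA. It was at 1361, 1325, 1253 and 1049 CPM in PF382 and at 1848, 1703, 1560 and 1309 CPM in TLOm1 from untreated to 500 nM. Each step was downward, and the slope was -0.18 ± 0.026 (adjusted p = 0.00274, edgeR's quasi-likelihood test), with reads of NPM1 shared with its processed pseudogenes to an extent not known here. NCL (nucleolin), which binds nascent ribosomal RNA, was at 1298, 1343, 1148 and 1093 CPM in HH, at 1822, 1837, 1800 and 1495 CPM in PF382 and at 1561, 1506, 1400 and 1125 CPM in TLOm1. NCL was lower at each higher AZA dose in all 3 lines, with a slope of -0.17 ± 0.031 (adjusted p = 0.00832), while the lowest dose lay above untreated in HH and PF382.

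Among the 7 snoRNP genes, all slopes with AZA were below 0 and 5 passed. FBL, the methyltransferase of the C/D particles, fell from 299 CPM in untreated TLOm1 cells to 272, 239 and 190 CPM, and its slope over the lines was -0.17 ± 0.037 (adjusted p = 0.0173). NOP56 and NOP58, core proteins of the same particles, had slopes of -0.12 each. NHP2, a core protein of the H/ACA particles, had a slope of -0.12 and NOLC1, a chaperone of both kinds, of -0.16. The H/ACA genes DKC1, the pseudouridine synthase, and GAR1 did not pass, with slopes of -0.06 and -0.004. GAR1 was at 77.9, 85.4, 90.9 and 97.5 CPM in HH and at 28.3, 25.6, 21.6 and 21.3 CPM in TLOm1, in opposite order of dose.

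Of 9 genes of small subunit processing, WDR43, WDR75 and HEATR1 (UTP proteins that load early on the nascent RNA) and TSR1, a late cytoplasmic maturation factor, fell with AZA dose. TSR1 was at 136, 140, 131 and 114 CPM in HH, 148, 164, 158 and 142 CPM in PF382 and 72.3, 70.0, 65.7 and 60.2 CPM in TLOm1. In PF382 the 125 and 250 nM libraries lay above untreated, each higher dose was below the lower one in all lines, and the slope was -0.12 ± 0.026 (adjusted p = 0.0141). WDR43, WDR75 and HEATR1 had slopes of -0.13, -0.14 and -0.12. UTP20, NOP14, RRP9 and BYSL did not pass, with slopes between -0.08 and -0.03, and RRP12, an export factor of the pre-ribosome, had a slope of 0.09 ± 0.031 (adjusted p = 0.0806). RRP12 was at 104, 96.2, 105 and 120 CPM in TLOm1.

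Of 11 genes of the large subunit, all slopes with AZA were below 0 and WDR12, GNL3 and DDX21 passed. WDR12, which works in 1 complex with PES1 and BOP1, had a slope of -0.17 ± 0.039 (adjusted p = 0.022), and PES1 and BOP1 had slopes of -0.09 (adjusted p = 0.0509) and -0.04 (adjusted p = 0.578). GNL3 (nucleostemin) and the helicase DDX21 had slopes of -0.12 and -0.11. NOP2, NOP16, EBNA1BP2, RRS1, NIP7 and PPAN did not pass, with slopes between -0.14 and -0.04. PPAN was read at 53 to 211 counts only, and its readthrough gene PPAN-P2RY11 at 0. LYAR, PUS7 and MYBBP1A, which were placed outside these groups, had slopes of -0.18, -0.13 and -0.04 and did not pass. In TLOm1, LYAR was at 65.4, 55.8, 47.8 and 32.4 CPM from untreated to 500 nM, the furthest below untreated of the 40 genes in that library (log2 ratio -0.99).

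The 5 Pol I genes split. POLR1B, the second largest subunit, fell with a slope of -0.15 ± 0.035 (adjusted p = 0.0216). UBTF, which binds the ribosomal DNA promoter, rose with a slope of 0.09 ± 0.024 (adjusted p = 0.0287). UBTF was at 289, 355, 366 and 414 CPM in HH, at 228, 272, 290 and 324 CPM in PF382 and at 205, 212, 236 and 243 CPM in TLOm1. Every AZA library was above its untreated one, and every higher dose above the lower. The count of genes that rose was 0 in 6 of the 9 fits that left out 1 AZA library. POLR1A, the largest subunit, POLR1C, shared with Pol III, and RRN3, the initiation factor TIF-IA, did not pass over the lines. Reads of RRN3 may be shared with its copies RRN3P1, RRN3P2 and RRN3P3, which held 1 to 772 counts against 1010 to 4933 of RRN3.

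Set against the untreated libraries, AZA gave 0 genes of the 40 past the threshold in edgeR's quasi-likelihood test, where 0.755% of 16554 genes were higher and 0.248% lower. At an unadjusted p under 0.05 there were 7, 4 higher and 3 lower, where 2158 of all 16554 genes were higher and 1296 lower. DESeq2 called UBTF higher and MYC lower (4.51% and 2.27% of all genes), and limma voom called UBTF higher and 0 lower (1.65% and 1.01%), shares near or under those of all genes. The median log2 fold change of the 40 was -0.04 against 0.02 over all genes. UBTF had the smallest adjusted p (0.30 ± 0.071, adjusted p = 0.0698), followed by MYC. MYBBP1A was at 0.18 ± 0.063 (adjusted p = 0.155), RRP12 at 0.20 ± 0.084 (adjusted p = 0.211) and NPM1 at -0.23 ± 0.10 (adjusted p = 0.218). With the untreated libraries of the decitabine set in place of the AZA set, 6 were higher and 8 lower, where 17.9% and 14.7% of 16593 genes were, so that these counts too lay near the share of all genes.

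The libraries of AZA set side by side with their untreated library showed which of them carried these values. Of the 40 genes, 10, 26 and 25 were below untreated in HH at 50, 125 and 250 nM, where 42.5%, 44.8% and 45.2% of all genes tested were. In PF382, 4, 6 and 18 were below at 125, 250 and 500 nM, where 40.5%, 42.6% and 37.9% of all genes were. In TLOm1, 30, 29 and 35 were below, where 50.9%, 49.3% and 48.3% of all genes were. Against the untreated libraries of their own set, TLOm1 thus lay mostly below at every dose and PF382 mostly above, while in all 3 lines the median log2 ratio of the 40 was lower at each higher dose. The median was 0.05, -0.07 and -0.10 in HH, 0.20, 0.15 and 0.03 in PF382 and -0.10, -0.15 and -0.35 in TLOm1. MYC was the lowest of the 40 in all 3 PF382 libraries, at log2 ratios of -0.49, -0.60 and -0.84. Which line lay lowest turned with the choice of the untreated library. Against the untreated libraries of the decitabine set, 28, 29 and 31 of the 40 were below in PF382, 10, 19 and 19 in HH and 18, 22 and 30 in TLOm1, where 40.1% to 51.4% of all genes were. The medians were then -0.23, -0.30 and -0.43 in PF382, 0.16, 0.07 and 0.06 in HH and 0.03, -0.03 and -0.22 in TLOm1. The sign thus changed at all 3 doses in PF382, at 125 and 250 nM in HH and at 125 nM in TLOm1, while the order of doses within a line, which does not rest on the untreated library, stayed.

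**Figure D3:**
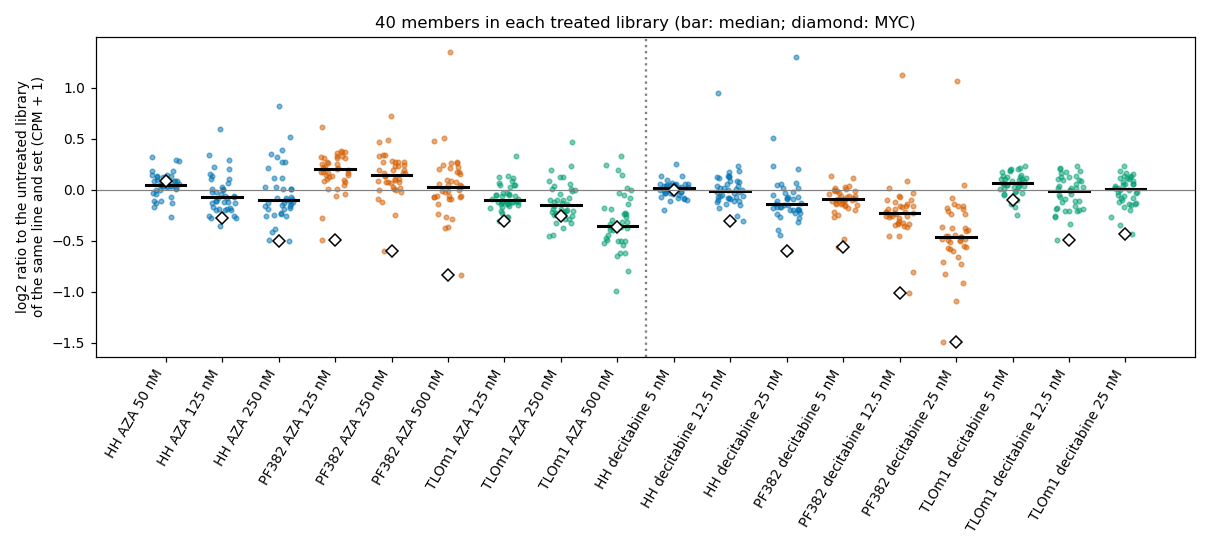
log2 ratio of CPM + 1 to the untreated library of the same line and set (vertical axis) for each of the 40 genes in the 18 treated libraries (horizontal axis, AZA left and decitabine right of the dotted line; blue HH, orange PF382, green TLOm1). The black bar is the median of the 40 and the diamond is MYC. The medians step down with dose in PF382 with decitabine (-0.09, -0.22, -0.46), where MYC reaches -1.49.

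With decitabine, 4 of the 40 genes fell with dose and 0 rose, where 0.991% of 16248 genes fell and 2.6% rose. These were MYC, NOP16 (-0.18 ± 0.044, adjusted p = 0.0365), NOLC1 (-0.16 ± 0.038, adjusted p = 0.0411) and WDR43 (-0.13 ± 0.033, adjusted p = 0.0498), by edgeR's quasi-likelihood test. The slope was below 0 in 38 of the 40, with a median of -0.09 against 0.01 over all genes. At an unadjusted p under 0.05, 28 of the 40 fell and 0 rose, where 1220 of all 16248 genes fell and 1836 rose. The count of 4 became 1 without any 1 of 7 of the 9 libraries, 9 without TLOm1 at 5 nM and 10 without TLOm1 at 25 nM, 0 without the HH line and 7 without the TLOm1 line. DESeq2 gave 9 (1.67% of all genes), and edgeR without a filter on low counts 12 (1.36%). Over all genes the count was 161 as reported and 16 to 258 without 1 library or line. MYC, NOLC1 and WDR43 were the 3 of the 40 that fell with both drugs. When 1 decitabine library was left out, MYC was called in 9, NOLC1 in 2 and WDR43 in 1 of 9 fits. With 1 AZA library left out, they were called in 7, 4 and 6 of 9 fits. The share of all genes that fell with both drugs is not given here, so the overlap is not read as a result about the 40.

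NOP16, a factor of early large subunit assembly, was at 37.5, 26.6, 21.1 and 17.1 CPM in PF382 from untreated to 25 nM decitabine. In HH it was at 30.1, 31.2, 26.5 and 22.7 CPM and in TLOm1 at 35.3, 31.96, 30.4 and 29.2 CPM. All libraries but HH at 5 nM were below untreated. NOLC1 was at 602, 565, 478 and 362 CPM in PF382, at 310, 340, 319 and 291 CPM in HH and at 320, 362, 326 and 325 CPM in TLOm1. WDR43 was at 201, 183, 168 and 137 CPM in PF382, at 200, 208, 214 and 179 CPM in HH and at 173, 171, 144 and 151 CPM in TLOm1. For these genes the PF382 libraries showed the widest range, while in HH the 2 lower doses lay above untreated for NOLC1 and WDR43. The other 36 genes had decitabine slopes between -0.13 and 0.18, with MYCN and POLR1A above 0. By role, the slope was below 0 in 7 of 7 snoRNP, 9 of 9 small subunit and 11 of 11 large subunit genes, in 4 of 5 Pol I genes and in NCL and NPM1.

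Against untreated, decitabine gave 0 of the 40 past the threshold in edgeR's quasi-likelihood test, as it did for all 16354 genes (0% higher and 0% lower). At an unadjusted p under 0.05 there were 5, all lower, where 992 of all 16354 genes were lower and 1595 higher. DESeq2 called POLR1C lower and 0 higher (1.07% and 1.75% of all genes), and limma voom called 0 (0.0367% and 0.0428%). The log2 fold change was below 0 in 36 of the 40, with a median of -0.12 against 0.03 over all genes. POLR1C had the smallest adjusted p (-0.29 ± 0.082, adjusted p = 0.161). It was at 35.8, 29.6, 28.2 and 24.8 CPM in PF382, at 34.04, 33.4, 31.6 and 30.1 CPM in HH and at 21.98, 18.4, 17.3 and 17.1 CPM in TLOm1. All 9 decitabine libraries were below untreated for POLR1C. NOP16 was at -0.42 ± 0.15 (adjusted p = 0.223), NPM1 at -0.19 ± 0.080 (adjusted p = 0.273), BYSL, a factor of small subunit export, at -0.22 ± 0.094 (adjusted p = 0.282) and NIP7 at -0.16 ± 0.083 (adjusted p = 0.35). With the untreated libraries of the AZA set, 4 were higher and 9 lower, where 15.1% and 14.8% of 16586 genes were.

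Of the 40 genes, 18, 22 and 31 were below untreated in HH at 5, 12.5 and 25 nM decitabine, where 40.6%, 39.1% and 37.9% of all genes were. In PF382, 33, 37 and 38 were below, where 42.7%, 39.4% and 36.1% of all genes were. In TLOm1, 10, 21 and 19 were below, where 47.8%, 47.7% and 44.5% of all genes were. Against the untreated libraries of its own set, PF382 thus stood lowest with decitabine, where TLOm1 had stood lowest with AZA. In PF382 at 25 nM the median log2 ratio was -0.46 over the 40 and 0.10 over all genes. Against the untreated libraries of the AZA set this order turned as well, with 7, 15 and 25 of the 40 below in PF382, 26, 25 and 29 in HH and 28, 32 and 28 in TLOm1, where 36.9% to 46% of all genes were. The steps between treated libraries do not rest on the untreated one. In PF382 33 of the 40 fell at both such steps (17.8% of all genes did), against 20 in HH (16.9%) and 7 in TLOm1 (13%).

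Differences between lines in the effect of a drug passed for 0 of the 40 with AZA (0.146% of 17841 genes) and 0 with decitabine (0.00561%). By DESeq2 0 passed as well. At an unadjusted p under 0.05 there were 2 with AZA and 1 with decitabine, where 1902 and 1480 of all 17841 genes were. With AZA, POLR1C had the smallest p (adjusted p = 0.297), with log2 fold changes in HH, PF382 and TLOm1 of -0.35, 0.28 and -0.01, followed by UTP20 (adjusted p = 0.451), GAR1 (adjusted p = 0.532) and MYCN (adjusted p = 0.536). With decitabine it was POLR1A (adjusted p = 0.587), with 0.87 in HH, -0.14 in PF382 and 0.12 in TLOm1, followed by RRN3 (adjusted p = 0.623), NOP16 (adjusted p = 0.666) and MYBBP1A (adjusted p = 0.667). Each of these rests on 1 untreated library per line.

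Slopes fitted per line over the 18 treated libraries, a comparison chosen after seeing the data, did differ between lines. With AZA, 5 of the 40 passed the test of the difference between lines (12.2% of 17090 genes), namely POLR1A, NOLC1, BOP1, MYCN and LYAR. With decitabine, 8 did (6.62%), namely POLR1A, MYBBP1A, PUS7, POLR1B, MYC, NOLC1, BOP1 and MYCN. With AZA the share of the 40 was near that of all genes.

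POLR1A rose with both drugs in HH, did not pass in TLOm1, and in PF382 fell with decitabine. In HH it was at 118 CPM untreated and at 144, 179 and 209 CPM at 50, 125 and 250 nM AZA, and at 88.0 CPM untreated and 105, 171 and 219 CPM at 5, 12.5 and 25 nM decitabine. In PF382 it was at 96.9, 114, 123 and 115 CPM with AZA and at 99.0, 101, 88.9 and 87.3 CPM with decitabine. In TLOm1 it was at 138, 133, 140 and 131 CPM with AZA and at 109, 117, 120 and 119 CPM with decitabine. The slope in HH was 0.23 ± 0.042 with AZA (adjusted p = 0.000221) and 0.45 ± 0.043 with decitabine (adjusted p = 2.95e-08). It was -0.01 and -0.03 with AZA in PF382 and TLOm1 and -0.13 (adjusted p = 0.0459) and 0.00 with decitabine, and the difference between lines had an adjusted p of 0.00495 with AZA and 2.87e-07 with decitabine in edgeR's quasi-likelihood test. Both sets held the same order of doses in HH for the gene of the largest Pol I subunit, while POLR1B had slopes of -0.08 and -0.10 there and did not pass.

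In HH with AZA, 6 genes fell (MYC, NCL, NPM1, WDR75, HEATR1 and DDX21; 6.08% of all genes) and POLR1A rose (7.57%). In PF382 with AZA, 8 fell (MYC, NCL, NPM1, FBL, POLR1B, WDR43, HEATR1 and PUS7; 3.75%) and MYCN rose (5.96%). In TLOm1 with AZA, 19 fell (11.8%) and RRP12 rose (11.4%), with LYAR (-0.41 ± 0.077), PPAN (-0.39 ± 0.14), NOLC1 (-0.31 ± 0.048) and WDR12 (-0.29 ± 0.059) the lowest. MYC did not pass in TLOm1 with AZA (-0.05 ± 0.050, adjusted p = 0.485), while its slope was -0.25 ± 0.041 in HH and -0.19 ± 0.049 in PF382. In HH with decitabine, MYC and NOP16 fell (1.17%) and POLR1A and MYCN rose (3.94%). In PF382 with decitabine, 30 of the 40 fell (7.03%) and MYCN rose (10.7%), among them MYC (-0.43 ± 0.043, adjusted p = 1.78e-08), PUS7 (-0.33 ± 0.058), MYBBP1A (-0.32 ± 0.045), POLR1B (-0.31 ± 0.053), NOP16 (-0.31 ± 0.064) and NOLC1 (-0.30 ± 0.041). In TLOm1 with decitabine, MYC fell (-0.16 ± 0.042, adjusted p = 0.0318; 0.252%) and 0 rose (1.85%). The decitabine slope of MYC was below 0 and passed in all 3 lines, and it differed between them (adjusted p = 0.0124, edgeR's quasi-likelihood test). In TLOm1 the order of doses was not kept, since MYC was higher at 25 nM than at 12.5 nM decitabine. The rise of MYCN in PF382 rests on 22 to 53 counts with AZA and 4 to 22 counts with decitabine.

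**Figure D4:**
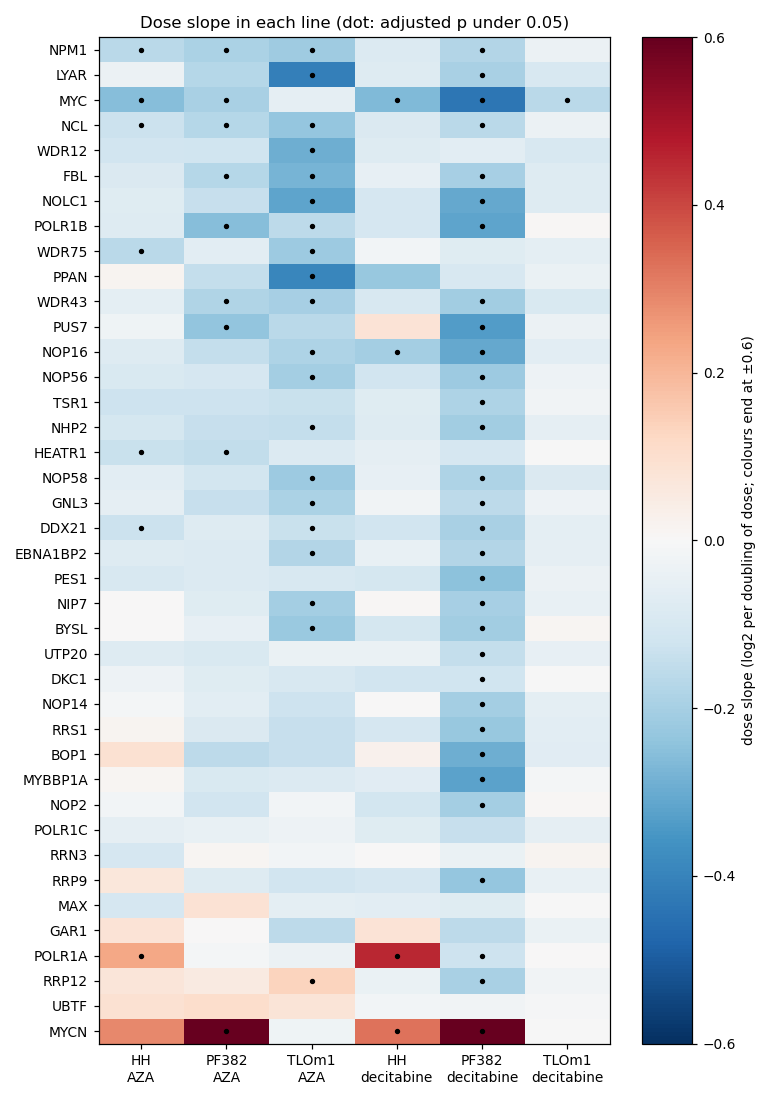
Dose slope in log2 per doubling of dose (colour, ending at ±0.6) of the 40 genes (rows) in each line and drug (columns), with a dot for an adjusted p under 0.05. The decitabine column of PF382 holds 31 dots, the AZA column of TLOm1 20, and the decitabine column of TLOm1 a single one, for MYC; the cells of POLR1A are red in HH alone.

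MYBBP1A, a MYB binding protein of the nucleolus, was at 192, 173, 140 and 108 CPM in PF382 from untreated to 25 nM decitabine, at 120, 124, 122 and 113 CPM in HH and at 134, 139, 144 and 138 CPM in TLOm1. The level fell at each dose in PF382 and moved within 113 to 144 CPM in the other lines. NOLC1 was at 403, 393, 344 and 262 CPM in TLOm1 from untreated to 500 nM AZA and within 320 to 362 CPM there with decitabine. BOP1, a scaffold of large subunit assembly, was at 191, 210, 212 and 244 CPM in HH with AZA and at 110, 132, 129 and 108 CPM in PF382. Its slopes with AZA were 0.09 in HH, -0.16 in PF382 and -0.14 in TLOm1.

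No difference between the drugs passed in these genes. The mean effect of AZA minus that of decitabine passed for 0 of the 40 (0% of 17841 genes higher and 0% lower). While 989 of all 17841 genes had an unadjusted p under 0.05, 4 of the 40 did. These were RRP12 (0.34 ± 0.11), UBTF (0.21 ± 0.080), POLR1C (0.27 ± 0.10) and MYBBP1A (0.32 ± 0.15), with adjusted p between 0.841 and 0.882 in edgeR's quasi-likelihood test. The slope of AZA minus that of decitabine passed for 0 (0.0936% higher and 0.0293% lower). At an unadjusted p under 0.05 there were 3 of the 40, against 2167 of all 17090 genes. Of the 3, RRP12 (0.17 ± 0.046, adjusted p = 0.149) and UBTF (0.11 ± 0.030, adjusted p = 0.154) had the smallest p in the same test. DESeq2 also called 0 for the mean effect. The doses of the drugs do not match, and an adjusted p over the threshold does not show that the drugs act alike.

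Most other genes of the pathway, in lists of their own, did not pass. With AZA dose, 6.19% of all genes fell and 8.04% rose, and with decitabine dose 0.991% and 2.6%. Of 12 other genes of Pol I transcription, 3 fell and 1 rose with AZA dose, among them NOL11 (-0.16 ± 0.025) and TAF1D (-0.14 ± 0.034), which fell, and TAF1C (0.11 ± 0.026), which rose. Of 38 other genes of the small subunit processome, 7 fell and 0 rose, among them WDR36 (-0.16 ± 0.029), NAT10, the cytidine acetyltransferase of ribosomal RNA (-0.15 ± 0.028), and WDR3 (-0.14 ± 0.028). Of 43 other genes of large subunit assembly, 10 fell and 1 rose, among them DDX24 (-0.17 ± 0.024), BRIX1 (-0.18 ± 0.035) and RRP15 (-0.18 ± 0.041). Their medians were -0.08, -0.08 and -0.05. With decitabine, 0 of the 12, 2 of the 38 (RRP7A, -0.15 ± 0.034, and EMG1, -0.17 ± 0.042) and 2 of the 43 (DDX24, -0.13 ± 0.029, and WDR74, -0.17 ± 0.040) fell and 0 rose, with medians between -0.06 and -0.05. Among the values not past the threshold, NOB1 was at -0.14, DDX56 at -0.12, NOL11 at -0.07, TAF1D at -0.07 and POLR1E at -0.06.

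MYC targets outside the nucleolus were counted in the same way. Of 43 tested, 17 fell and 1 rose with AZA dose, and 9 fell and 0 rose with decitabine dose, with medians of -0.11 and -0.09. HSPD1, a mitochondrial chaperone, fell with both (-0.31 ± 0.034 and -0.17 ± 0.034), as did TMEM97 (-0.26 ± 0.032 and -0.18 ± 0.034). TFRC, the transferrin receptor, fell with AZA (-0.28 ± 0.037), and PRMT1, an arginine methyltransferase, with decitabine (-0.12 ± 0.023). Of 16 tested partners of MYC, 0 fell and 3 rose with AZA dose, among them MXD4, a MAX partner that represses (0.16 ± 0.033), and the cofactor TRRAP (0.11 ± 0.028), while with decitabine 0 passed (MXD3 at -0.08, RUVBL1 at -0.09 and MLXIP at 0.11 had the smallest p). All adjusted p of genes named as rising or falling were under 0.05 in edgeR's quasi-likelihood test over all genes. Against untreated, 0 genes of these 5 lists passed with either drug, with 29 and 20 at an unadjusted p under 0.05; no other tool was read for these lists. The nearest with AZA were URB1 (0.27), GNL3L (0.24) and RRP1 (0.24) of the large subunit, DHX37 (0.21), PWP2 (0.20) and CIRH1A (0.16) of the small subunit, POLR1D (-0.17), TTF1 (-0.12) and CD3EAP (0.16) of Pol I, MLXIP (0.43), FBXW7 (-0.30) and MYCBP2 (-0.16) of the partners, and UNG (0.36), MCM5 (0.19) and NAMPT (-0.32) of the targets. With decitabine they were SHMT2 (-0.37), PRMT1 (-0.27) and UNG (0.29) of the targets, NVL (-0.21), DDX24 (-0.21) and ZNF622 (-0.15) of the large subunit, LTV1 (-0.20), UTP18 (-0.13) and WDR36 (-0.19) of the small subunit, TAF1A (-0.31), POLR1D (-0.10) and POLR1E (-0.15) of Pol I, and MYCL1 (1.40), FBXW7 (-0.18) and MLXIP (0.29) of the partners.

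Before drug, the lines differed in most of these genes, as they did in most genes. The 6 untreated libraries compared by line gave 30 of the 40 past the threshold, where 82.9% of 15501 genes were. The n = 2 of a line is 1 library from each drug's set, so the SD spans the sets. MYC was at 445 ± 4.58 CPM (SD, n = 2) in HH, 394 ± 19.4 CPM in PF382 and 164 ± 12.5 CPM in TLOm1. The log2 difference of TLOm1 from HH was -1.47 ± 0.11 (adjusted p = 8.15e-07) and that of PF382 from HH -0.37 ± 0.11 (adjusted p = 0.01), by edgeR's quasi-likelihood test. TLOm1, the line with the lowest MYC, had the highest MYCN, at 32.7 ± 4.96 CPM against 5.83 ± 4.12 CPM in HH (2.59 ± 0.31, adjusted p = 0.000101), and PF382 held 2 and 5 counts. GAR1 was at 87.3 ± 13.4 CPM in HH, 39.9 ± 13.4 CPM in PF382 and 28.9 ± 0.816 CPM in TLOm1, the last pair of which did not pass (adjusted p = 0.155). BYSL was at 57.4 ± 5.93 CPM in PF382, 25.1 ± 1.89 CPM in TLOm1 and 14.2 ± 2.91 CPM in HH, and all 3 pairs differed. Of the 40, 9 were higher and 13 lower in PF382 than in HH (34.4% and 32% of all genes), 10 higher and 7 lower in TLOm1 than in HH (28.1% and 27.6%), and 7 higher and 14 lower in PF382 than in TLOm1 (33.9% and 33.3%). HH was highest in 13 genes, PF382 in 12 and TLOm1 in 15.

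**Figure D5:**
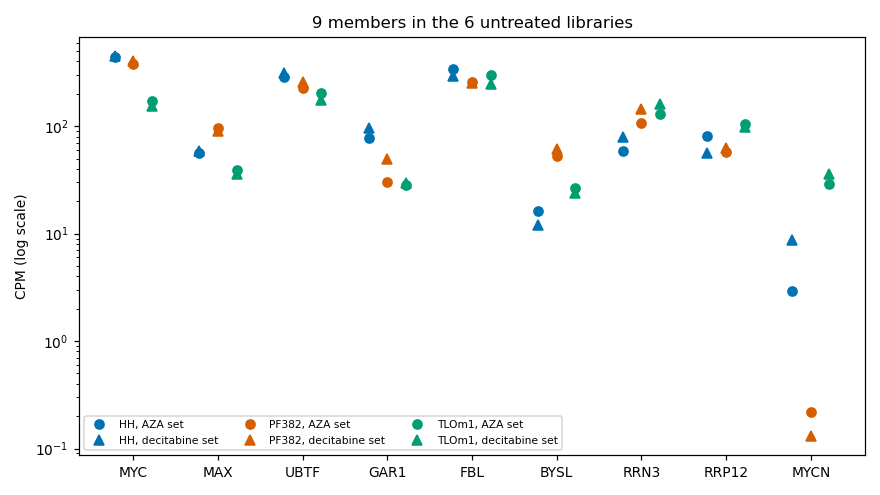
CPM on a log scale (vertical axis) of 9 of the 40 genes (horizontal axis) in the 6 untreated libraries, with circles for the AZA set and triangles for the decitabine set, and 1 colour per line. MYC lies at 155 to 173 CPM in TLOm1 and at 380 to 448 CPM in the other lines, and MYCN shows the reverse order of TLOm1 and HH.

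The 2 untreated libraries of a line were not the same in these genes. RRN3 (0.36 ± 0.087, adjusted p = 0.0298) and WDR43 (0.50 ± 0.13, adjusted p = 0.0371) were higher and BOP1 (-0.62 ± 0.11, adjusted p = 0.0124) lower in the decitabine set than in the AZA set, where 5.59% and 5.03% of all genes were, and WDR75 was at 0.38 ± 0.12 (adjusted p = 0.0748). In HH, PF382 and TLOm1, WDR43 was at 164, 103 and 138 CPM (AZA set) against 200, 201 and 173 CPM (decitabine set). BOP1 was at 191, 110 and 137 CPM against 100, 88.2 and 94.2 CPM, and RRN3 at 58.7, 107 and 129 CPM against 78.5, 144 and 160 CPM. In all 3 lines these genes kept their direction between sets, and the log2 difference was larger in size than the log2 fold change of the same gene with either drug. The calls of all 3 were lost without either HH library. Set and drug cannot be told apart, and the slopes, which do not use the untreated libraries, do not rest on this difference.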

How the data were processed

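The files hold whole read counts per gene, deposited by the authors without normalization, for 24 libraries of established cell lines. The submitters' processing notes name the build GRCh37.p2 and the tools STAR, limma and DESeq2, with no roles or versions. Read counter, annotation and strand setting: not given in the sources used here. Poly-A RNA, RNA depleted of ribosomal RNA and a stranded kit are all named per the labels. Groups came from the cell line, treatment and title labels (a title of each drug writes PF82 where the cell line label has PF382, which was followed), and AZA and decitabine sets from the title prefix. For drug effects and ratios, each line's pair of untreated libraries was kept apart. Their counts were further from each other than sampling allows (chi-square per degree of freedom 25.1 to 36.2). The comparison of untreated lines took both libraries of a pair as libraries of that line.

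Counts were fitted with edgeR 4.0.16 in R 4.3.3 (quasi-likelihood F test, robust, TMM factors of 0.918 to 1.2, filterByExpr with minimum count 10 and minimum total 15, cell line as block), and p-values were adjusted by Benjamini-Hochberg over all genes tested, threshold 0.05. All 40 genes passed the filter. The drug effect set 9 treated against 3 untreated libraries; the dose slope used the 9 treated libraries; the difference between lines, between drugs and the untreated comparisons used 24 or 6 libraries. CPM are counts over the library total, ratios used a pseudocount of 1 CPM, and changes are relative, since no spike-in was used. Levels are not compared between genes, as no lengths were applied. DESeq2 1.42.0 and limma 3.58.1 (voom) were alternatives. The scripts were tested on simulated data. The members, the other lists and the tests were chosen with earlier results of these data known. Values per library are given for MYC, MYCN and MAX and for the genes leading each comparison by adjusted p (6 per effect, 4 per slope, 4 per difference, 3 per other list); further genes shown by library, such as GAR1, LYAR, RRP12, FBL and the genes of the slopes per line, were chosen after their values were seen. RefSeq promoters are of GRCh38.p14. By that annotation 13 of the 40 genes overlap another protein-coding gene (BOP1, BYSL, EBNA1BP2, GNL3, HEATR1, MAX, MYBBP1A, NHP2, NOP16, POLR1C, PPAN, RRN3, TSR1), and reads there may be split. No spread within a condition was measured, since each has 1 library. Some results for single genes of the other lists are not reported here.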

Additional observations from a re-analysis of the deposited data

Results flagged for a closer look

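The slope on dose differed between the 3 lines, by a test of the difference itself over the treated libraries (edgeR's quasi-likelihood test with Benjamini-Hochberg adjustment, chosen after seeing the data), in these genes. With AZA the adjusted p was 0.00495 for POLR1A (0.23 in HH, -0.01 in PF382 and -0.03 in TLOm1), 0.0233 for NOLC1 (-0.07, -0.14 and -0.31), 0.0359 for BOP1 (0.09, -0.16 and -0.14), 0.0404 for MYCN (0.29, 0.67 and -0.03) and 0.046 for LYAR (-0.04, -0.17 and -0.41). With decitabine it was 2.87e-07 for POLR1A (0.45, -0.13 and 0.00), 0.00289 for MYBBP1A (-0.07, -0.32 and -0.01), 0.00298 for PUS7 (0.08, -0.33 and -0.04), 0.011 for POLR1B (-0.10, -0.31 and 0.01), 0.0124 for MYC (-0.26, -0.43 and -0.16), 0.0184 for NOLC1 (-0.10, -0.30 and -0.08), 0.022 for BOP1 (0.03, -0.29 and -0.07) and 0.0286 for MYCN (0.33, 0.82 and -0.00). The steepest fall was in TLOm1 with AZA for NOLC1 and LYAR and in PF382 with decitabine for 7 of its 8 genes, MYCN being the exception. With AZA 5 of the 40 passed, where 2088 of 17090 genes did, so that the share of the 40 was near that of all genes. With decitabine 8 of the 40 passed, where 1131 of 17090 genes did. Each line holds 3 treated libraries per drug.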

How the results depend on the processing

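Counts of called genes moved with the libraries and with the tool. The counts below describe how far calls among the 40 moved, and the shares of all genes for the other untreated set are given in the Results. For AZA against untreated, 1 gene was higher by DESeq2 and by voom and 6 with the untreated libraries of the other set (0 as reported), and 1 was lower by DESeq2 and 8 with the other set; leaving out 1 library or line gave 0 to 1 lower. For decitabine against untreated, the other set gave 4 higher and 9 lower, and DESeq2 1 lower. Leaving out 1 library or line gave 0 to 2 higher and 3 to 14 lower genes in the AZA slope (1 and 16 as reported), and 0 to 10 lower in the decitabine slope (4 as reported), which gave 9 by DESeq2 and 12 without a filter on low counts. In the difference between lines in the AZA slope, DESeq2 gave 2 (5 as reported). Between the sets of untreated libraries, leaving out 1 library gave 0 to 4 higher and 0 to 8 lower, and no filter 2 lower. No share of all genes is given for these fits, so their counts are not read as a result about the 40. The sign turned for MYCN with AZA (-0.24 with the other set), for the AZA slope of MAX, which ran from -0.0845 to 0.0288 when 1 library or line was left out (above 0 without the HH line or HH at 50 nM), and for the decitabine effect on MAX, which ran from -0.158 to 0.00039 (above 0 without PF382). The cause was not tested. Of the counts under alternatives, 144 stayed within 1.5 times the reported count and 49 did not. Of the values for single genes, 581 kept direction and side of the threshold, 48 lost and 15 gained the call, and 4 reversed. Both median slopes kept their sign: 34 to 36 of 40 genes lay below 0 with AZA and 35 to 39 with decitabine. The labels carry no replicate numbers, so no fit by such a number was made; cell line is the block in the reported fits.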
